A study of Mus musculus with 16 samples.

Results

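The net change left in macrophages when lipopolysaccharide (LPS) and dexamethasone (Dex) act together for 1 hr was measured by comparing the 3 WT LPS + Dex libraries with the 2 WT untreated libraries, 5 of the 16 RNA-seq libraries of the series. Libraries were chosen by genotype and treatment label only. The study sequenced polyA RNA of bone-marrow-derived macrophages (BMDM) that were untreated or treated with LPS or LPS + Dex, from WT mice and from mice that lack NELF-B in myeloid cells. It used these data to ask how the glucocorticoid receptor (GR) represses inflammatory genes. WT cells came from male C57BL/6 mice, 8 weeks old, of the genotype LysM-Cre:NELF-B wt/wt, so the WT cells of all groups carried the Cre recombinase, which the LysM (Lyz2) promoter drives in myeloid cells. LPS was used at 10 ng/ml and Dex at 100 nM. The labels number 3 WT mice, called A, B and C here. Mice A and B gave an untreated, an LPS and an LPS + Dex library each, and mouse C gave an LPS and an LPS + Dex library. No library with Dex alone was analysed here, so the shares of LPS and Dex in the net change cannot be told apart, except through the 3 LPS libraries.

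LPS is sensed by the receptor complex of CD14, MD-2 and TLR4, which activates NF-kB and MAP kinases and, through the adaptor TRIF, the transcription of interferon beta. Dex is a synthetic glucocorticoid that binds GR, a nuclear receptor that activates genes such as Tsc22d3 and Fkbp5 and represses many NF-kB and AP1 target genes. Some genes, Dusp1 among them, are known targets of both pathways.

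Values are the log2 CPM that the authors deposited for 9614 genes, where CPM is the count of a gene per unit of sequencing depth, after scaling of the libraries. They rise from a floor of -5.15 log2 CPM in steps of 1 read, which gave 25029253 and 28785944 reads for untreated A and B and 29769283 to 41227736 for LPS + Dex. Untreated A was unlike the rest. Its correlation across genes with each other library was 0.83 to 0.909, against 0.924 to 0.993 among the other 15. Genes named Rps or Rpl (86, ribosomal proteins) were higher in untreated A than in untreated B by a median of 1.18 log2, and 43 genes named Nduf (mitochondrial complex I) by 1.44. A change of call against untreated B alone is therefore stated for each named gene. List counts also changed through members not named, and these changes are not all given. The macrophage label held, as Csf1r was at 11.36 to 11.74 and Cd68 at 10.03 to 10.89 log2 CPM in the 8 WT libraries, although Adgre1 was not among the genes analysed here and Lyz2 was at 4.30 to 5.30. Among the markers of other cells, 3 of 14 neutrophil genes, 2 of 16 T, NK and B cell genes, 3 of 10 dendritic cell genes, 6 of 11 stromal genes and 3 of 15 erythroid, mast and megakaryocyte genes were in the table, and 0 of these 17 were called in this comparison. The summed CPM of the neutrophil genes was 168 to 243 in untreated and 178 to 238 in LPS + Dex, and that of the stromal genes 94.1 to 147 and 132 to 189. It was 62.5 to 94.8 and 22.6 to 89.9 for the T, NK and B cell genes, 22.4 to 28.9 and 11.3 to 29.5 for the dendritic cell genes and 238 to 250 and 99.9 to 282 for the erythroid, mast and megakaryocyte genes, and their part in the results was not tested. In bulk RNA, fewer cells of a type and less RNA per cell cannot be told apart.

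LPS + Dex raised 273 genes and lowered 62 at an FDR under 0.1 and over 1.5-fold, in limma's moderated test over all 8 WT libraries. These are 2.84% and 0.645% of the 9614 genes. The median log2 change was 1.76 for the higher genes and -0.99 for the lower genes, against 0.02 for all genes. Of the higher genes, 232 rose over 2-fold, 118 over 4-fold and 35 over 16-fold. Of the lower genes, 30 fell over 2-fold and 2 over 4-fold. The LPS + Dex and untreated values did not overlap in any of the 335 called genes, as was the case for 24.8% of all genes. The plot of all genes shows that the increases were larger and more numerous than the decreases.

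**Figure D1:**
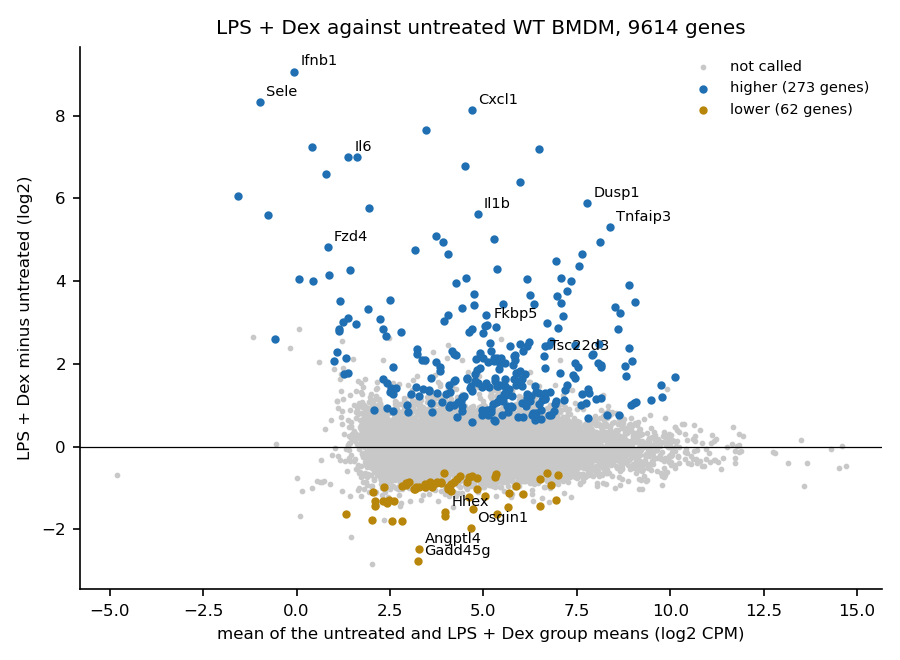
Each point is 1 of 9614 genes, with the mean of the untreated (n = 2) and LPS + Dex (n = 3) group means on the x axis (log2 CPM) and the difference between the groups on the y axis (log2). The 273 higher genes (blue) reach over 8 log2 units, and the 62 lower genes (ochre) lie between 0 and -3.

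Against untreated B alone, in a fit that keeps the LPS libraries, 229 genes (2.38%) were higher and 45 (0.468%) lower. They include 204 of the 273 higher and 29 of the 62 lower genes. The direction of the 335 genes could not change here, as their LPS + Dex values all lay on the same side of untreated B. Among the 273 higher genes the median change was 1.91 within mouse A and 1.59 within mouse B. Among the 62 lower genes these medians were -1.16 and -0.83. With the mouse as a block, 254 of the 273 and 53 of the 62 were called.

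Cytokine genes had the highest median change of the 22 lists. Of 25 listed genes 19 were measured, 14 rose (73.7%) and 0 fell. The list median was 4.15 log2 against 0.02 for all genes, and 3.28 against untreated B alone. For this list and those below, the shares of all 9614 genes were 2.84% higher and 0.645% lower. A gene with almost no untreated reads, such as Ifnb1 or Areg, could not be called lower, so the 0 was partly set in advance. Tnf, the gene of the cytokine TNF, was at 5.09 and 6.20 log2 CPM in the untreated libraries and at 10.69, 10.40 and 10.70 in LPS + Dex of mice A, B and C. The groups were far apart, and Tnf rose by 4.95 ± 0.30 log2 (SE, limma adjusted p = 0.00011). In LPS alone it was at 11.55 to 11.67, so that the level left with Dex was 49.5% of the LPS level, a difference that did not pass in the test of LPS + Dex against LPS (limma adjusted p = 0.61).

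Il1b, which encodes a fever-inducing interleukin, was at 1.91 and 2.17 untreated and at 7.59, 7.78 and 7.62 log2 CPM in LPS + Dex. It rose by 5.63 ± 0.17 log2 (limma adjusted p = 4.8e-06). Il1a, which encodes a related interleukin, was at -1.35 and -0.56 untreated and at 5.10, 4.72 and 4.61 in LPS + Dex. It rose by 5.77 ± 0.30 (limma adjusted p = 4.7e-05), and no LPS + Dex library of either gene came near its untreated values. Il6, an inducer of the acute phase response, was at -2.25 and -1.97 untreated and at 4.47, 5.12 and 5.09 in LPS + Dex, a rise of 7.0 ± 0.30 (limma adjusted p = 1.6e-05).

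Il10, an anti-inflammatory cytokine, was at 1.02 and 4.51 untreated and at 7.49, 8.22 and 7.65 log2 CPM in LPS + Dex. The untreated libraries differed by more than 3 log2, but both were below all LPS + Dex libraries, and Il10 rose by 5.02 ± 0.87 (limma adjusted p = 0.027). Its LPS values were 6.45, 7.39 and 6.49, below those of LPS + Dex in each mouse, and this step of 1.01 ± 0.78 did not pass (limma adjusted p = 1). It was the only measured cytokine gene of the list that was higher with Dex in all 3 mice, whereas 16 of the 19 were lower in all 3. Of all 9614 genes, 17.0% were higher and 22.1% lower with Dex in all 3 mice.

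For Ifnb1, the interferon beta gene (chr4:88522025-88522774, minus strand, GRCm38), the untreated libraries held 0 reads and 1 read and the LPS + Dex libraries 2522 reads. Per unit of depth this is 1300 times the untreated level, with an exact 95% counting interval of 233 to 51380. Areg, which encodes the growth factor amphiregulin, also had 0 reads and 1 read untreated, against 312 in LPS + Dex, or 161 times as much with an interval of 28.7 to 6374. Csf3, the granulocyte colony-stimulating factor, had 1 and 4 reads untreated and 1762 in LPS + Dex, or 182 times as much (77.7 to 560.3). The intervals cover counting error only. All 3 genes passed the test (limma adjusted p = 0.00011, 0.0012 and 0.00013).

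Further cytokine genes that rose were Tnfsf9, the ligand of the T cell receptor 4-1BB, by 6.78 ± 0.28, Il12b, an interleukin subunit, by 4.15 ± 0.50, Il27 by 4.05 ± 0.67, Tnfsf15 by 3.11 ± 0.57, Lif by 2.28 ± 0.23 and Gdf15 by 2.13 ± 0.28 log2. Tnfsf15 lost its call with the mouse as a block. Osm, which encodes oncostatin M, was at 3.32 and 3.44 untreated and at 4.29, 4.79 and 4.08 in LPS + Dex and did not pass (limma adjusted p = 0.22), although it passed with the mouse as a block (adjusted p = 0.039). Vegfa, an angiogenic factor, was at 6.28 and 6.33 untreated and at 6.69, 6.74 and 6.69 in LPS + Dex. Its groups did not overlap, but the change of 0.40 ± 0.14 was under 1.5-fold and did not pass (limma adjusted p = 0.28).

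Chemokine genes, whose products attract leukocytes, rose in 10 of 13 measured members of 19 listed, with 0 lower and a list median of 3.51 log2. Cxcl1, a neutrophil attractant (chr5:90891241-90893115, plus strand), was at 0.33 and 0.94 untreated and at 8.71, 8.76 and 8.85 log2 CPM in LPS + Dex. The 3 treated libraries lay within 0.2 log2 of each other, and Cxcl1 rose by 8.14 ± 0.19 (limma adjusted p = 1.8e-06). In LPS alone it was at 8.65, 8.69 and 8.68, which is 0.10 ± 0.17 log2 below LPS + Dex (limma adjusted p = 1).

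Its neighbour Cxcl2 was at 2.57 and 3.22 untreated and at 9.76, 10.29 and 10.18 in LPS + Dex, a rise of 7.18 ± 0.26 (limma adjusted p = 1.2e-05). Cxcl10, which attracts T cells, was at -0.81 and 0.05 untreated and at 7.22, 7.02 and 7.62 in LPS + Dex, a rise of 7.66 ± 0.31 (limma adjusted p = 1.6e-05). Both genes were clear of their untreated values in every LPS + Dex library, and both were lower than with LPS alone in each of the 3 mice. The monocyte attractants Ccl2 and Ccl7 rose by 3.42 ± 0.41 and 3.70 ± 0.47, Ccl3, Ccl4 and Ccl5 by 3.75 ± 0.46, 4.66 ± 0.37 and 3.36 ± 0.47, Ccl12 by 3.51 ± 0.57 and Ccl9 by 1.05 ± 0.18 log2.

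Outside the lists, Sele, Edn1 and Gem were 3 of the 15 genes with the largest increases. Sele, the adhesion molecule E-selectin that is best known from endothelium (chr1:164048234-164057677, plus strand), had 0 reads in both untreated libraries and 944 in LPS + Dex, where it was at 3.06, 3.03 and 3.42 log2 CPM. Against a floor of 3 reads over the untreated group, Sele was at least 162-fold higher (limma adjusted p = 1.6e-05). In LPS alone Sele was at 1.72, 1.33 and 1.26, lower than in LPS + Dex in every mouse. Of the endothelial markers listed, Cdh5 and Kdr were not among the genes analysed here, and Pecam1 was not called.

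Edn1, which encodes the vasoconstrictor endothelin 1, was at -3.07 and -1.97 untreated, at 1.83, 1.63 and 2.49 in LPS and at 4.0, 3.46 and 4.79 log2 CPM in LPS + Dex. The 3 conditions did not overlap, and Edn1 rose by 6.60 ± 0.50 over untreated (limma adjusted p = 0.0004). Gem, a small GTPase, was at -1.97 and -1.79 untreated and at 5.41, 4.67 and 5.25 in LPS + Dex, a rise of 6.99 ± 0.29 (limma adjusted p = 1.6e-05).

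**Figure D2:**
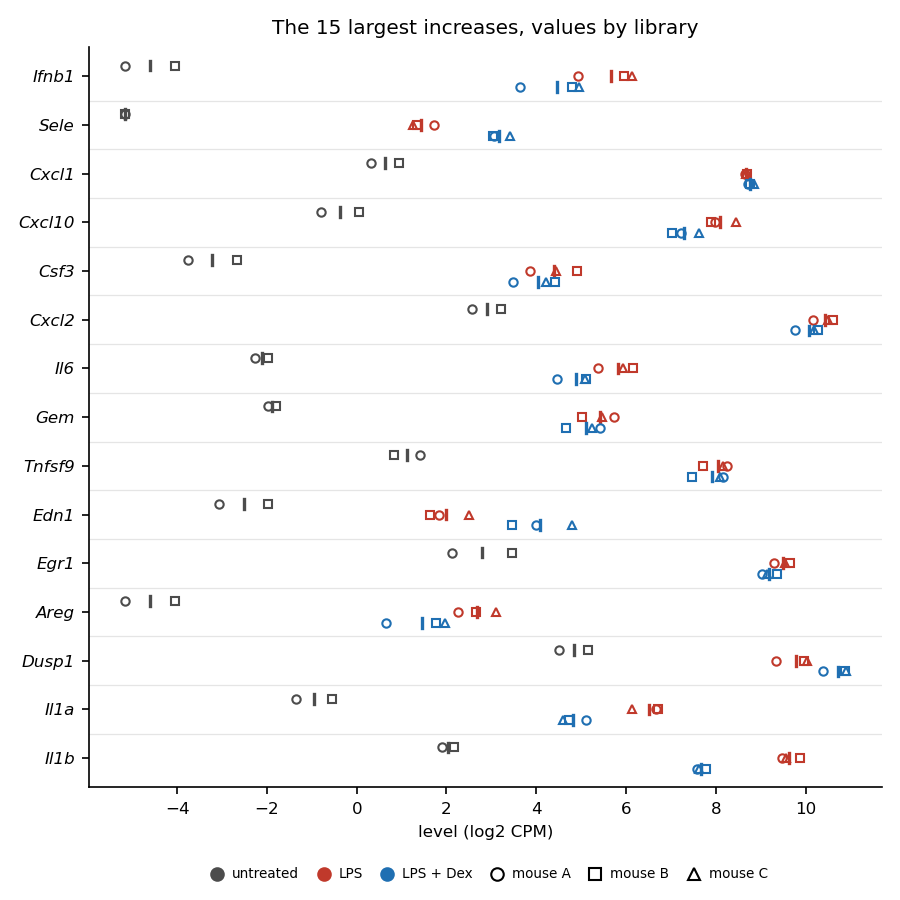
Level of the 15 genes with the largest increases in each WT library (log2 CPM), by treatment (colour) and mouse (symbol), with bars at the group means. By the rule that chose the genes, every LPS + Dex value lies above the untreated values of its gene. Sele, Edn1 and Dusp1 lie above LPS alone whereas Il1a and Il1b lie below it.

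Immediate-early transcription factor genes, which need no new protein for their induction, rose in 15 of 23 measured members of 25 listed, with 0 lower and a list median of 2.14 log2. Egr1 was at 2.12 and 3.45 untreated and at 9.04, 9.36 and 9.13 in LPS + Dex, a rise of 6.39 ± 0.35 (limma adjusted p = 6.4e-05). Fos was at 5.75 and 6.67 untreated and at 8.37, 9.06 and 8.60 in LPS + Dex, and Jun at 5.41 and 5.63 against 7.91, 8.08 and 8.22. Both AP1 genes were clear of their untreated values and rose by 2.46 ± 0.33 and 2.55 ± 0.21 (limma adjusted p = 0.0075 and 0.00061). Both were slightly higher than with LPS alone in each mouse, by 0.54 ± 0.29 and 0.52 ± 0.19, which did not pass (limma adjusted p = 1 for both).

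Other members of this list rose by 4.65 ± 0.19 (Maff), 4.26 ± 0.26 (Egr3), 3.18 ± 0.33 (Egr2) and 2.91 ± 0.19 log2 (Nr4a1). Klf4, a factor of monocyte differentiation, was at 1.74 and 2.33 untreated, at 2.85, 2.93 and 2.97 in LPS and at 4.31, 4.58 and 4.33 in LPS + Dex. It rose by 2.37 ± 0.22 (limma adjusted p = 0.0011) and was also called against LPS alone. Fosl2, Ier3 and Myc lost their calls against untreated B alone, where 12 members of the list rose. Klf2 was at 3.91 and 2.84 untreated and at 5.28, 4.94 and 6.17 in LPS + Dex and missed the threshold (limma adjusted p = 0.11), although it passed with the mouse as a block (adjusted p = 0.023).

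NF-kB subunits and their feedback inhibitors rose in 13 of 24 members, all measured, with 0 lower and a list median of 1.08 log2. Tnfaip3, which encodes the ubiquitin-editing inhibitor A20, was at 5.30 and 6.16 untreated, at 10.97, 11.08 and 10.88 in LPS and at 10.98, 11.22 and 10.94 in LPS + Dex. The LPS and LPS + Dex values overlapped and both groups lay far above untreated, with a rise of 5.31 ± 0.25 (limma adjusted p = 3.2e-05). Nfkbia, the inhibitor that retains NF-kB in the cytoplasm, was at 6.79 and 7.27 untreated and at 10.29, 10.15 and 10.36 in LPS + Dex, a rise of 3.24 ± 0.19 (limma adjusted p = 8.2e-05). Its LPS + Dex level was 93.2% of that in LPS alone, and that of Tnfaip3 was 105%.

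The remaining increases of this list included Rel, an NF-kB subunit, by 2.83 ± 0.55, and Nfkbiz, a nuclear cofactor, by 2.83 ± 0.57. The inhibitors Nfkbie and Nfkbid rose by 2.09 ± 0.22 and 1.45 ± 0.22. Zc3h12c and Zc3h12a, which encode RNA-binding proteins of the Regnase family, rose by 3.45 ± 0.55 and 1.28 ± 0.16. Tnfaip2, Tnip3, Birc3, Traf1 and Irak2 rose by 1.03 to 1.77 log2, and Birc3 lost its call against untreated B alone.

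Promoter sequence is shown for 5 of these strongly raised genes because each held a match to the NF-kB motif, and the match is a description of letters and not of binding. RefSeq promoters (GRCm38.p6) were found for 7399 of the 9614 genes, among them 213 of the 273 higher and 50 of the 62 lower genes. Within 250 bases before the start, the motif searched, GGGNNTTTC or its reverse complement GAAANNCCC, was found in 20 of the 213 higher genes (9.39%), in 5 of the 50 lower genes (10.0%) and in 4.39% of all 7399 genes. Matches are in capitals, and sequences run 5′ to 3′ on the strand of the gene. The stretches lie at chr5:90891122-90891217 (plus strand, Cxcl1), chr5:90903767-90903864 (plus, Cxcl2), chr12:55492648-55492795 (minus, Nfkbia), chr10:19015515-19015593 (minus, Tnfaip3, the first of 2 matches) and chr5:30013035-30013113 (plus, Il6).
Cxcl1: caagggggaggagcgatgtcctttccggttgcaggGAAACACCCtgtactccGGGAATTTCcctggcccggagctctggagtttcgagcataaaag
Cxcl2: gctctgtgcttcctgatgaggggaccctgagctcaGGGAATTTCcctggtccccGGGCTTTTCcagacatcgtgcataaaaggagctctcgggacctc
Nfkbia: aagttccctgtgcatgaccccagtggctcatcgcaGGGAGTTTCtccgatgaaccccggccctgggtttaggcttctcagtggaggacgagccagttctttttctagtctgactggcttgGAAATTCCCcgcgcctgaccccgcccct
Tnfaip3: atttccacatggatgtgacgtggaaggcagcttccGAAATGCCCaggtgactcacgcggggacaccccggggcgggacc
Il6: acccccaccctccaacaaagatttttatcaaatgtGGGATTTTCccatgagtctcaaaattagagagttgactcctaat

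Genes of MAP kinase feedback and mRNA decay rose in 10 of 18 measured members of 22 listed, with 0 lower and a list median of 1.61 log2. Dusp1, a phosphatase that inactivates p38 and JNK, was at 4.52 and 5.15 untreated, at 9.35, 9.97 and 10.04 in LPS and at 10.38, 10.87 and 10.90 in LPS + Dex. It rose by 5.88 ± 0.30 over untreated (limma adjusted p = 4.3e-05). All LPS + Dex values were above all LPS values, a step of 0.93 ± 0.26 that did not pass without the mouse as a block (limma adjusted p = 0.74) and passed with it (adjusted p = 0.034). Dusp1 held the cyclic AMP response element TGACGTCA, a palindrome found in 16 of the 213 higher genes with an entry (7.51%), 1 of the 50 lower genes (2.00%) and 3.28% of all 7399, shown in capitals at chr17:26508573-26508650 (minus strand).
Dusp1: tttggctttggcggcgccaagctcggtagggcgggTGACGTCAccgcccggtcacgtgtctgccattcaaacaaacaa

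Zfp36, which encodes the mRNA-destabilising protein tristetraprolin, was at 6.53 and 7.13 untreated and at 9.90, 10.65 and 10.06 in LPS + Dex, a rise of 3.38 ± 0.33 (limma adjusted p = 0.0015). Socs3, an inhibitor of cytokine receptor signalling, was at 4.97 and 5.11 untreated and at 9.16, 8.97 and 9.21, a rise of 4.07 ± 0.15 (limma adjusted p = 1.2e-05). Both were lower than with LPS alone in all 3 mice, at 64.5% and 69.1% of the LPS level. The phosphatase genes Dusp2, Dusp5, Dusp16 and Dusp8 rose by 4.30 ± 0.51, 2.75 ± 0.23, 1.86 ± 0.19 and 1.76 ± 0.39, and the phosphodiesterase gene Pde4b by 2.99 ± 0.25. Spry2 rose by 1.28 ± 0.30 and lost its call with the mouse as a block.

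Known GR targets rose in 12 of 29 measured members of 34 listed and fell in 2, with a list median of 1.34 log2. Their median was 0.52 for LPS against untreated and 0.40 for LPS + Dex against LPS, and the first of these shares its untreated libraries with the net comparison. Several members of this list are also known LPS targets. Dusp1, Zfp36, Nfkbia, Sgk1, Errfi1, Cdkn1a and Pim3 rose, Pim3 losing its call against untreated B alone, and their LPS-alone changes were 1.48 to 4.95 log2. The others that rose were Tsc22d3, Fkbp5, Per1, Klf9 and Map3k6, whose LPS-alone changes were -1.60 to 0.80.

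Tsc22d3, which encodes the anti-inflammatory protein GILZ (chrX:140539528-140600659, minus strand), was at 5.75 and 5.28 untreated, at 3.76, 3.92 and 4.05 in LPS and at 7.49, 7.96 and 7.67 in LPS + Dex. The 3 conditions formed separate levels, with LPS alone lowest and LPS + Dex highest. The net rise was 2.19 ± 0.21 (limma adjusted p = 0.0013), while LPS + Dex exceeded LPS by 3.80 ± 0.19 (limma adjusted p = 0.00053). Fkbp5, a chaperone of the GR complex, was at 4.0 and 3.25 untreated, at 3.68, 3.35 and 4.13 in LPS and at 6.53, 6.59 and 6.61 in LPS + Dex. Its LPS and untreated values overlapped, and it rose by 2.95 ± 0.28 (limma adjusted p = 0.0014).

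Per1, a repressor of the circadian clock, was at 5.51 and 5.56 untreated, at 5.50, 6.34 and 5.71 in LPS and at 7.93, 8.27 and 7.79 in LPS + Dex, a net rise of 2.46 ± 0.26 (limma adjusted p = 0.0023). Klf9 and the kinase gene Map3k6 rose by 2.67 ± 0.46 and 2.24 ± 0.31. The 2 members that fell were Angptl4 and Rgs2, and Rgs2 lost its call against untreated B alone. Mt2, a metallothionein gene, was at 7.38 and 4.98 untreated and at 7.68, 7.49 and 7.82 in LPS + Dex. It did not pass (limma adjusted p = 0.38), but against untreated B alone it did, with a change of 2.68 (adjusted p = 0.0078).

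Against LPS alone, 17 genes (0.177%) were higher and 9 (0.0936%) lower with Dex at the same thresholds, and 30 and 17 with the mouse as a block. These numbers moved to 41 and 25 when untreated A was left out of the shared estimate of spread. The higher genes included Fzd4, Tsc22d3, Fkbp5, Il15ra, Pfkfb3, Per1, 1700017B05Rik, Rnf169, Abhd15, Tigd2, Nfil3, Klf4, Jdp2, Ppp1r3b, Rnf103 and Pex13. Of the 17 genes 16 also rose in the net comparison, and Abhd15 did not pass there (limma adjusted p = 0.16) but did with the mouse as a block (adjusted p = 0.022). Both comparisons use the same LPS + Dex libraries, so this overlap is not independent of the choice of the 17 genes. Rnf169 lost its net call against untreated B alone (limma adjusted p = 0.17). With the mouse as a block, Nfil3 lost its call against LPS (limma adjusted p = 0.12), and among the genes named here Dusp1, Sele and Map3k6 gained one as higher with Dex and Ifnb1, Nr4a1, Ier3, Dusp8, Olr1, Cd83 and Nr1d1 as lower. ACANNNTGT, the palindromic core of the GR response element, was held within 250 bases before the start by 4.04% of all 7399 genes. Of the 17 genes higher with Dex, 14 had a RefSeq promoter, and these held 0 matches. This says only that these letters are not in that window.

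Fzd4, a receptor of Wnt ligands (chr7:89404355-89413134, plus strand), was at -1.53 and -1.64 untreated, at -1.36, -2.08 and -0.94 in LPS and at 3.35, 2.81 and 3.57 in LPS + Dex. LPS and untreated values overlapped, and the net rise of 4.83 ± 0.47 (limma adjusted p = 0.0014) was thus close to the step of 4.71 ± 0.42 from LPS to LPS + Dex (limma adjusted p = 0.0075). Il15ra, the receptor chain that presents interleukin 15, was at 0.81 and 0.67 untreated, at 1.53, 1.37 and 2.05 in LPS and at 4.01, 4.23 and 4.61 in LPS + Dex. Each condition was clear of the others, and Il15ra rose by 3.55 ± 0.28 in all (limma adjusted p = 0.0005).

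Pfkfb3, an activator of glycolysis, was at 6.26 and 7.46 untreated, at 6.77, 7.29 and 6.65 in LPS and at 9.13, 9.80 and 9.06 in LPS + Dex. Its rise of 2.48 ± 0.39 passed (limma adjusted p = 0.018). In the fit of all 8 WT libraries it was the only 1 of 27 measured genes of hypoxia and glycolysis to do so. That is 3.70%, close to the 2.84% of all genes. The gene 1700017B05Rik was at 7.21 and 7.01 untreated, at 6.11, 6.32 and 5.98 in LPS and at 7.98, 8.40 and 7.94 in LPS + Dex. As with Tsc22d3, its LPS values lay below untreated and its LPS + Dex values above, with a net rise of 1.00 ± 0.19 (limma adjusted p = 0.041). Jdp2, an AP1 repressor, rose by 2.43 ± 0.15, and Nfil3, a transcription factor of the clock, by 2.52 ± 0.25. Prss16, a serine protease gene, rose by 3.08 ± 0.72 but lost its call with the mouse as a block.

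The 9 genes that were lower with Dex than with LPS alone were Ptgs2, Il1b, Plau, Il1a, Lif, Pdgfb, Hcar2, Il1rn and Vegfa. Net of both agents 6 of them still rose, and Plau, Pdgfb and Vegfa were not called. Ptgs2, which encodes the prostaglandin synthase COX-2 (chr1:150100031-150108227, plus strand), was at 1.08 and 1.28 untreated, at 8.36, 8.30 and 8.14 in LPS and at 6.31, 6.21 and 6.27 in LPS + Dex. The 3 conditions did not overlap. The net rise was 5.08 ± 0.14 (limma adjusted p = 3.6e-06), and Dex left 25.0% of the LPS level (limma adjusted p = 0.0018).

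Il1b was left at 25.5% of its LPS level, Il1a at 30.9% and Lif, a cytokine of the interleukin 6 family, at 31.3%. Il1a missed the threshold with the mouse as a block (adjusted p = 0.12). Il1rn, which encodes the interleukin 1 receptor antagonist, was at 6.24 and 6.17 untreated and at 6.92, 6.73 and 7.0 in LPS + Dex, a net rise of 0.68 ± 0.15 (limma adjusted p = 0.071). Plau, a plasminogen activator, was at 5.88 and 5.41 untreated, at 7.36, 6.80 and 6.69 in LPS and at 5.59, 4.85 and 4.87 in LPS + Dex. Its LPS + Dex values overlapped the untreated ones, and its net change of -0.54 ± 0.30 did not pass (limma adjusted p = 0.43). Pdgfb, a growth factor gene, was at 4.25 and 4.22 untreated and at 3.96, 3.66 and 3.85 in LPS + Dex, below both untreated values, with a net change of -0.41 ± 0.15 that did not pass (limma adjusted p = 0.33).

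Among called genes with the same sign in all 3 mice, the furthest below LPS also included Olr1, the receptor of oxidised LDL. It was at 0.77 and -0.56 untreated, at 5.53, 4.30 and 5.50 in LPS and at 3.64, 1.96 and 3.58 in LPS + Dex. It rose by 2.95 ± 0.65 (limma adjusted p = 0.071) and was 2.05 ± 0.58 below LPS, which did not pass without the mouse as a block (limma adjusted p = 0.74) and passed with it (adjusted p = 0.015). Ier3, a stress-response gene, was at 4.80 and 4.91 untreated and at 5.94, 6.28 and 5.88 in LPS + Dex, and Dusp8 at 0.81 and -0.04 against 2.25, 1.62 and 2.57. Both were lower than in LPS alone in each mouse.

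**Figure D3:**
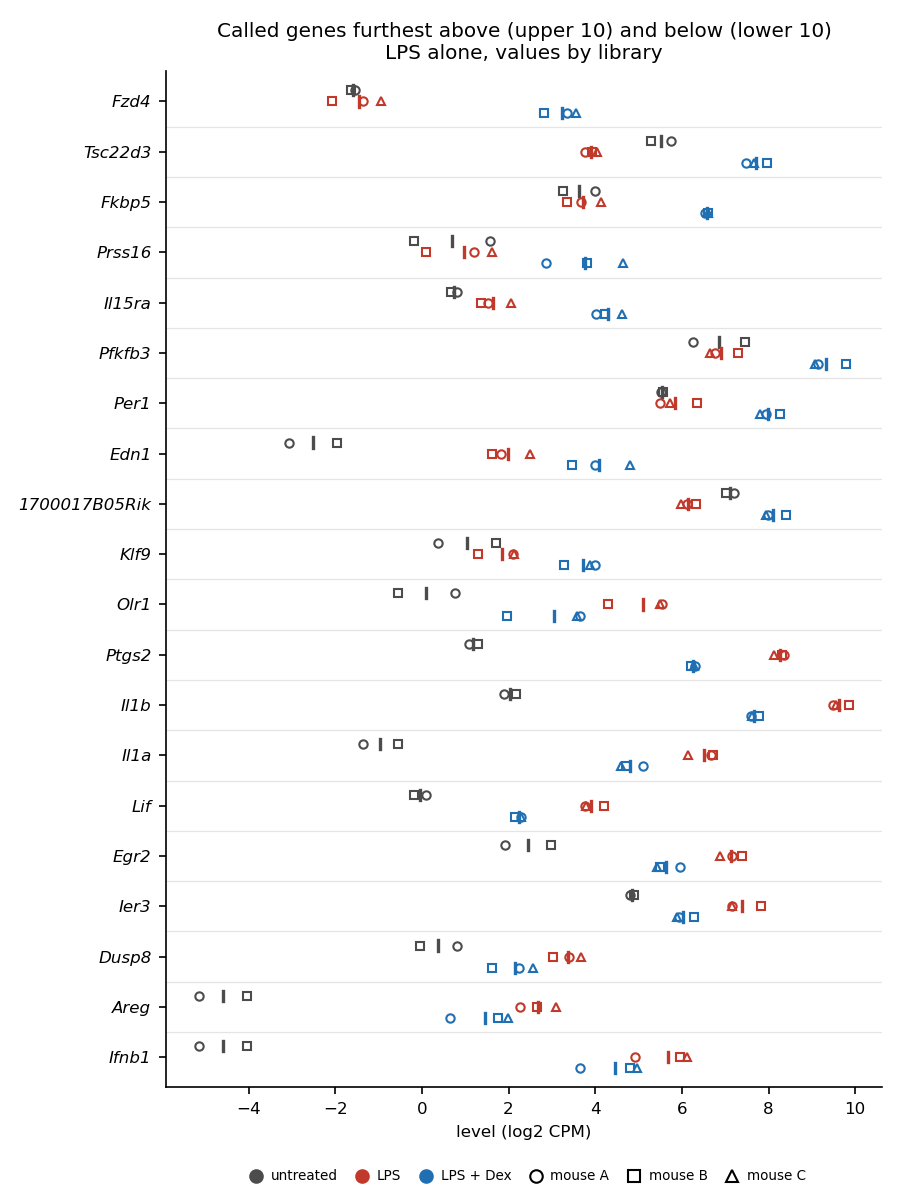
Level in each WT library (log2 CPM) of the 10 called genes furthest above LPS alone (top) and the 10 furthest below it (bottom), by treatment (colour) and mouse (symbol), with bars at the group means. The LPS values of Fzd4, Fkbp5 and Pfkfb3 overlap the untreated ones, and those of Tsc22d3 and 1700017B05Rik lie below them. The lower 10 were chosen as below LPS and were all called higher than untreated. Their LPS + Dex means therefore had to lie between those of untreated and LPS.

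Over all 273 higher genes, LPS + Dex was below LPS in all 3 mice for 134, above it in all 3 for 104 and of mixed sign for 35. Of all 9614 genes, 22.1% were below LPS and 17.0% above it in all 3 mice. The median difference of the 273 genes was -0.09 log2, with quartiles of -0.39 and 0.37, against quartiles of -0.06 and 0.04 for all 9614 genes. The difference was within 1.3-fold for 134 of the 273, while 71 were lower and 68 higher by more. Of all 9614 genes, 9162 were within 1.3-fold, 212 lower and 240 higher by more. Among the 62 lower genes, LPS + Dex was below LPS in all 3 mice for 27 and above it for 13. The net comparison and this one share the LPS + Dex libraries.

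Interferon-stimulated genes, which respond to secreted interferon as well as to IRF3, rose in 5 of 29 measured members, with 0 lower and a list median of 0.66 log2. Gbp5, an inflammasome-related GTPase, was at 1.23 and 1.64 untreated and at 6.40, 6.21 and 6.54 in LPS + Dex, a rise of 4.95 ± 0.22 (limma adjusted p = 2.4e-05). Irf1, a transcription factor, rose by 1.91 ± 0.18 (limma adjusted p = 0.0012). Rsad2, which encodes the antiviral enzyme viperin, was at 5.45 and 5.68 untreated and at 8.07, 7.81 and 9.43 in LPS + Dex, highest in mouse C. Ifit1, at 5.24 and 5.60 against 7.34, 7.65 and 8.57, and Ifi205, at -2.25 and -0.86 against 1.89, 2.06 and 3.36, were also highest in mouse C, which has no untreated library. These 3 passed in the full fit (limma adjusted p = 0.075, 0.033 and 0.028) and not against untreated B alone (adjusted p = 0.33, 0.19 and 0.17). The summed CPM of the list was 1346 to 1608 in untreated, 2292 to 5933 in LPS and 1931 to 5178 in LPS + Dex. Ifi205 belongs to a family of similar genes, so that its reads may be split with relatives.

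Surface molecules of activated macrophages rose in 10 of 18 members, all measured, with 0 lower and a list median of 1.38 log2. Cd69, an early activation marker, was at 2.19 and 2.77 untreated and at 6.05, 7.05 and 6.61 in LPS + Dex, a rise of 4.09 ± 0.34 (limma adjusted p = 0.00058). Sdc4, the proteoglycan syndecan 4, was at 7.17 and 6.69 untreated and at 10.83, 11.04 and 10.65, a rise of 3.91 ± 0.20 (limma adjusted p = 4.7e-05). All treated values of both genes lay at least 3 log2 above the untreated ones. Icosl, a costimulatory ligand, rose by 2.25 ± 0.21, Icam1, an adhesion molecule, by 1.92 ± 0.22, Pvr by 1.75 ± 0.19, Cd274, which encodes PD-L1, by 1.48 ± 0.30 and Plaur by 1.46 ± 0.35. Cd40 and Cd83 rose by 1.5 ± 0.26 and 1.3 ± 0.27 and lost their calls against untreated B alone.

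Of the 22 genes of the LPS receptor and its adaptors, 2 rose and 1 fell, with a list median of 0.30 log2. Tlr2, the receptor of bacterial lipoproteins, was at 7.82 in both untreated libraries and at 9.93, 9.60 and 9.80 in LPS + Dex, a rise of 1.96 ± 0.16 (limma adjusted p = 0.00058). Cd14, the coreceptor that hands LPS to TLR4, was at 9.52 and 9.05 untreated and at 10.95, 10.99 and 10.97, a rise of 1.68 ± 0.18 (limma adjusted p = 0.0020). Tab1, an adaptor of the kinase TAK1, fell by 0.87 ± 0.20 (limma adjusted p = 0.089) and lost the call against untreated B alone and with the mouse as a block (adjusted p = 0.12 and 0.14). Besides Ptgs2, Ptger4, a prostaglandin E receptor, rose by 1.47 ± 0.25 among the 11 measured genes of small mediators and lost its call against untreated B alone.

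**Figure D4:**
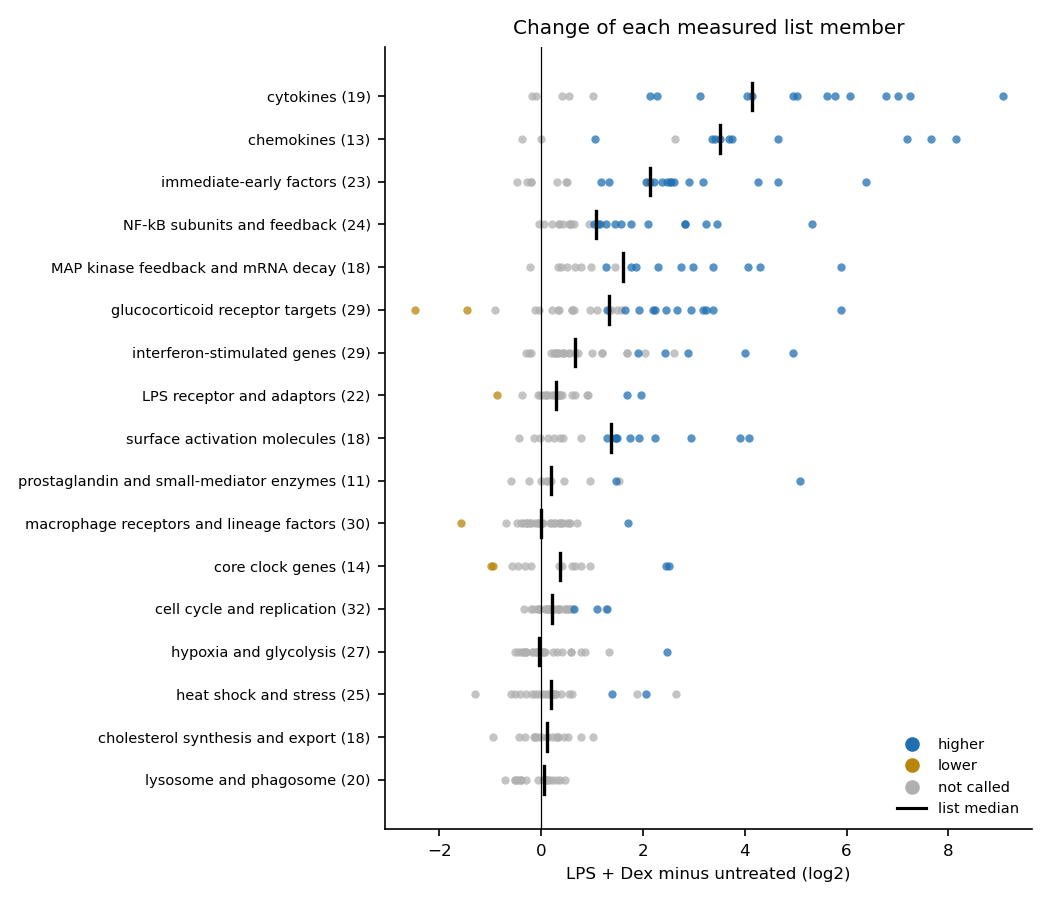
Log2 change from untreated to LPS + Dex of each measured gene (point) in 17 gene lists, with the number measured in brackets and a bar at the list median. The medians are highest for cytokines (4.15) and chemokines (3.51), and lie within 0.4 of 0 for the lists of LPS receptor, small mediator, macrophage, clock, cell cycle, hypoxia, stress, cholesterol and lysosome genes.

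The decreases were smaller. The largest was that of Gadd45g, a growth arrest gene (chr13:51846678-51848468, plus strand), which was at 5.51 and 3.75 untreated, at 2.39, 2.66 and 2.79 in LPS and at 1.70, 1.83 and 2.07 in LPS + Dex. The untreated libraries were far apart, but all treated values lay below both. Gadd45g fell by 2.76 ± 0.46 log2 (limma adjusted p = 0.022) and by 1.88 against untreated B alone. Angptl4, an inhibitor of lipoprotein lipase, was at 5.07 and 3.96 untreated and at 2.34, 2.15 and 1.59 in LPS + Dex, and fell by 2.48 ± 0.40 (limma adjusted p = 0.020). Osgin1, an oxidative stress gene, was at 5.82 and 5.49 against 3.60, 4.05 and 3.43, and fell by 1.96 ± 0.26 (limma adjusted p = 0.0068).

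Hhex, a homeobox gene of haematopoietic cells, was at 4.87 and 4.67 untreated, at 3.76, 3.61 and 3.64 in LPS and at 3.31, 3.01 and 3.25 in LPS + Dex. The 3 conditions did not overlap, and Hhex fell by 1.58 ± 0.17 (limma adjusted p = 0.0022). Armc7, a gene of an armadillo repeat protein, was at 4.85 and 4.78 untreated and at 3.07, 3.28 and 3.03, and fell by 1.69 ± 0.17 (limma adjusted p = 0.0019). Lfng, which modifies Notch receptors, was at 5.88 and 6.45 against 4.42, 4.77 and 4.43, and fell by 1.62 ± 0.25 (limma adjusted p = 0.016). Lfng and the immune receptor gene Cd300lb, which fell by 1.42 ± 0.20, were lower in untreated A than in untreated B, unlike most of the lower genes, 46 of 62 of which were higher in untreated A. Of the 273 higher genes 83 were higher in untreated A than in untreated B, and of all 9614 genes 4762.

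The zinc finger genes Zkscan14 and Zfp157 fell by 1.79 ± 0.30 and 1.78 ± 0.27, and Sertad3 by 1.8 ± 0.26. Among 171 genes named Zfp with a number, 6 rose (3.51%) and 7 fell, against 2.84% and 0.645% of all genes. Their median change was -0.19 log2, and -0.26 against untreated B alone. Frat2, Engase, Rgs2, N4bp3 and Smad7 fell by 1.64 ± 0.37, 1.51 ± 0.28, 1.45 ± 0.35, 1.43 ± 0.30 and 1.36 ± 0.27, and these 5 lost their calls against untreated B alone. Smad7, an inhibitor of TGF-beta signalling, was at 3.19 and 3.01 untreated and at 2.11, 1.35 and 1.77 in LPS + Dex, below both.

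**Figure D5:**
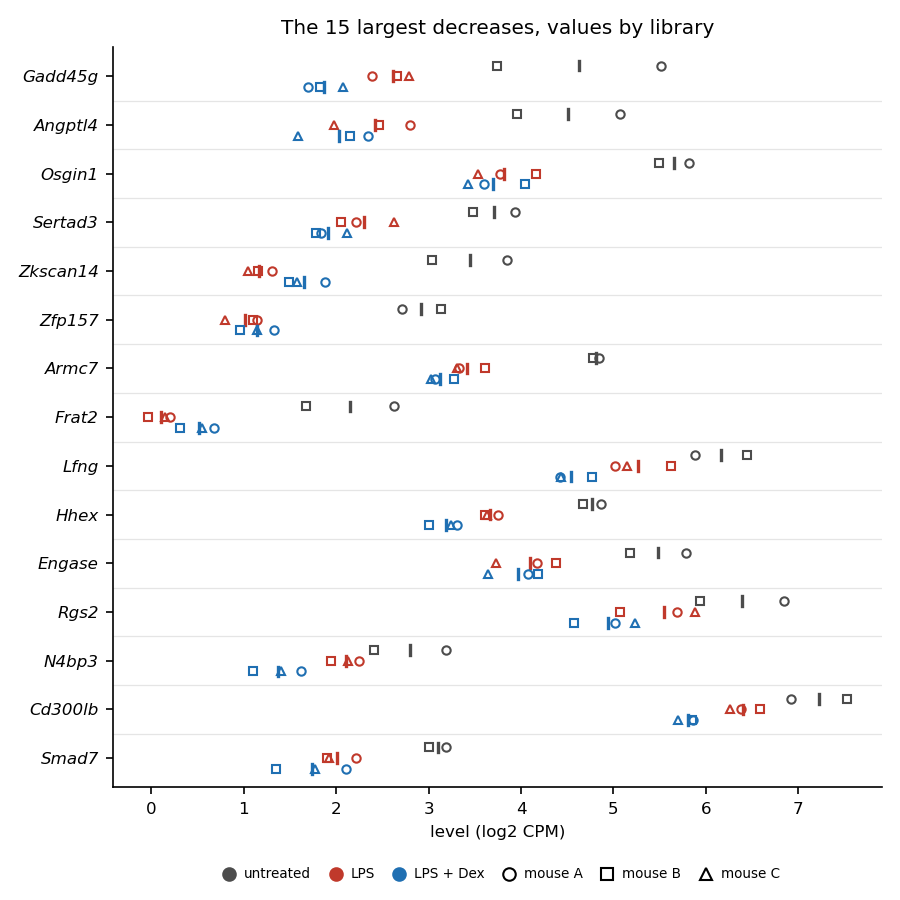
Level of the 15 genes with the largest decreases in each WT library (log2 CPM), by treatment (colour) and mouse (symbol), with bars at the group means. By the rule that chose the genes, all LPS + Dex values lie below the untreated values of their gene. The untreated libraries of mice A and B lie furthest apart for Gadd45g and Angptl4.

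In the remaining lists most genes were not called. The share that rose was 3.33% for macrophage, 14.3% for clock, 9.38% for cell cycle and 8% for stress genes. Of all genes 2.84% rose and 0.645% fell. Of 30 macrophage receptor and lineage genes measured, C5ar1, the receptor of complement C5a, rose by 1.71 ± 0.36 and Hhex fell, with a list median of 0.01 log2. Of 14 clock genes Per1 and Nfil3 rose, and the repressor Nr1d1 and the activator Dbp fell. Nr1d1 was at 3.15 and 3.44 untreated, at 3.26, 3.60 and 3.19 in LPS and at 2.36, 2.53 and 2.13 in LPS + Dex, and fell by 0.95 ± 0.22 (limma adjusted p = 0.089), whereas Dbp fell by 0.98 ± 0.22 (limma adjusted p = 0.082). Neither Nr1d1 nor Dbp was called against untreated B alone, and Dbp also lost its call with the mouse as a block.

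Of 32 cell cycle genes Mki67, Cdkn1a and Cdkn1b rose, by 1.10 ± 0.22, 1.29 ± 0.20 and 0.65 ± 0.15, which are a proliferation marker and a pair of cyclin-dependent kinase inhibitors, and Cdkn1b lost its call against untreated B alone. Of 25 stress genes the chaperone gene Dnajb4 rose by 2.07 ± 0.13 and Gadd45b by 1.40 ± 0.21. Among 18 genes of cholesterol synthesis and export and 20 of lysosome and phagosome, 0 were called in limma's test, with list medians of 0.11 and 0.05 log2, and 2 and 0 were called with the mouse as a block.

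The same comparison in NELF-B KO cells (LysM-Cre:NELF-B fl/fl, 3 LPS + Dex and 2 untreated libraries) raised 334 genes (3.47%) and lowered 117 (1.22%) in a limma fit of all 16 libraries. In that same fit the WT comparison had 524 higher and 243 lower genes. The 273 genes raised in WT were also higher on average in the KO, 248 of them past the thresholds, and the 62 lowered genes were lower, 43 past the thresholds. The median change of the 273 genes was 1.74 in the KO. The difference between KO and WT in the change passed an FDR of 0.1 for 0 genes, with 142 of 9614 at an unadjusted p under 0.05, and with the mouse as a block for 0 genes with 315. Nelfb was at 6.21 and 5.92 log2 CPM in WT untreated and at 5.68, 5.73 and 5.64 in WT LPS + Dex, and its change of -0.38 ± 0.15 did not pass (limma adjusted p = 0.35).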

How the data were processed

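The authors aligned 50 bp read pairs to the mm10 genome, kept uniquely mapped exonic reads, scaled the gene counts in edgeR, and deposited log2 CPM for 16 libraries and 9614 genes. The filter on genes and the strand setting are not given in the sources used here. The 18 p-value and FDR columns of the authors' own comparisons in that table were not used.

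Differences were tested on the deposited log2 CPM with lmFit and eBayes (trend) in limma 3.58.1 under R 4.3.3, over the 8 WT libraries with no block and no pseudocount, two-sided, with Benjamini-Hochberg adjustment over all genes. Calls needed an FDR under 0.1 and over 1.5-fold. The test was checked on simulated data with independent libraries, which held no mouse effect and no outlying library. That check cannot show how the calls fare with either. Reads were recovered from the steps of 1 read in the deposited values, with 100% of values under 3 CPM whole within 0.15 reads in every library. Python 3.11.15 served for the tables, with pandas 2.3.3, numpy 2.4.6 and, for exact intervals, scipy 1.17.1.

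The libraries pair by mouse, as the labels number the animals. Libraries of a mouse deviated together, with r = 0.46 across genes between untreated and LPS + Dex and 0.88 to 0.94 between LPS and LPS + Dex. Named were the called and best-known members of 22 lists, the 15 largest increases and decreases with groups apart and a group mean of at least 1 log2 CPM, the 10 called genes furthest above and below LPS in all 3 mice, and Nelfb. The genes called against LPS alone that lie outside this rule were named after their values were seen. The comparison and the lists were chosen with earlier results of these data known. Gene positions are from GENCODE vM21, where 9211 of the symbols matched. A gene called against LPS alone is not reported here.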

Additional observations from a re-analysis of the deposited data

How the results depend on the processing

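The fit over the 8 WT libraries called 273 higher and 62 lower genes. With only the 5 libraries compared these were 145 and 8, and with only the 3 LPS + Dex libraries and untreated B, an alternative chosen after seeing the data, 163 and 9. With all 16 libraries they were 524 and 243, which hold 272 of the 273 and all 62. With the mouse as a replicate block they were 334 and 94 over the 8 WT libraries and 1084 and 797 over all 16. Over the settings that left out 1 library each, the counts ran from 165 to 2267 and from 12 to 1982, the highest without untreated B, which leaves untreated A as the only baseline. The higher count was 168 without LPS + Dex A and 165 without LPS + Dex C. The lower count was 14, 19 and 12 without LPS + Dex A, B and C and 27, 31 and 26 without LPS A, B and C. Where 1 untreated library was left, it was assumed to vary like the other groups. An unadjusted p under 0.01 gave 111 lower genes, an FDR under 0.05 gave 30, and a 2-fold minimum gave 30. The filter on low values, the pseudocount, centring and voom on recovered reads kept both counts within 1.5 times. The causes of these shifts were not tested. In settings that left out libraries, the called genes could not reverse, as their groups did not overlap. None of the 139 named genes reversed under the alternatives run. Of them, 5 lost and 3 gained their call against untreated under the mouse block over the 8 WT libraries, and the block changed no other call of theirs in that comparison. Against LPS alone the block also changed calls, among them those of Il1a and Nfil3, which were lost. With 2 untreated libraries, 1 of which stands apart, small changes are poorly resolved.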
